A study of Mus musculus with 9 samples.

Results

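Mouse embryonic fibroblasts (MEFs) that carried a hairpin against Foxk1 together with added Foxk1 were compared with MEFs that carried a hairpin against GFP. The first group is labelled shFoxk1+Foxk1 and is called rescue here, and the second is labelled shGFP. Samples were chosen by their titles, which gave 3 rescue and 3 shGFP arrays, 6 of the 9 arrays in the series. The other 3 arrays held cells with the Foxk1 hairpin alone, labelled shFoxk1. Their values are given beside the comparison to show where each gene stood without added Foxk1. They are separate samples, and no label makes them an earlier time point of the rescue cells. All cells were grown in DMEM, and every group carried a hairpin, so no untreated cells entered the comparison. The labels name neither the hairpin sequences nor the vector and promoter that supplied Foxk1, and they do not say how many clones or cultures the replicates represent. Total RNA was labelled with biotin and hybridised to Affymetrix arrays, and levels are robust multi-array average (RMA) values on the log2 scale.

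Foxk1 is a forkhead transcription factor that mostly represses transcription, in part by recruiting the Sin3 corepressor complex, and Foxk2 is its closest relative. Both have been linked to glycolysis, autophagy and the response to growth factors, and Foxk1 has been linked to mTORC1 signalling and to the oxygen-regulated factor HIF1. In a knockdown and rescue design the hairpin removes the cell's own transcript and the added gene restores the protein, so a gene that depends on Foxk1 alone would move back towards the control. The comparison of rescue with shGFP asks what stayed different, and what moved past the control level.

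Of 20672 genes, 1042 were called in rescue against shGFP at a limma adjusted p under 0.05, which is 5.04% of the genes tested. The 516 genes called higher made up 2.5% and the 526 called lower made up 2.54%. Most differences were small: the median size among called genes was 0.31 on the log2 scale, and only 8 genes rose and 6 fell by 2-fold or more. The median difference over all genes was 0.02. All 3 arrays of a group lay apart from the other 3 for 2483 genes that were higher and 2131 that were lower in rescue, together 22.3% of the genes. The median standard error of a difference was 0.06 on the log2 scale, and 3 arrays a group limit its precision. Rescue replicate 2 stood apart on the second principal component, at -14.9 against 0.57 and -4.15 for replicates 1 and 3, and 692 genes were called without it. The count was 587 without rescue replicate 3 and 578, 567 and 587 without shGFP replicates 1, 2 and 3. The 442 genes called in every fit that left out an array, 2.14% of all genes, supplied every gene named below unless stated. Centring the arrays on the actin and Gapdh control probe sets changed the split of calls to 246 higher and 554 lower.

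**Figure D1:**
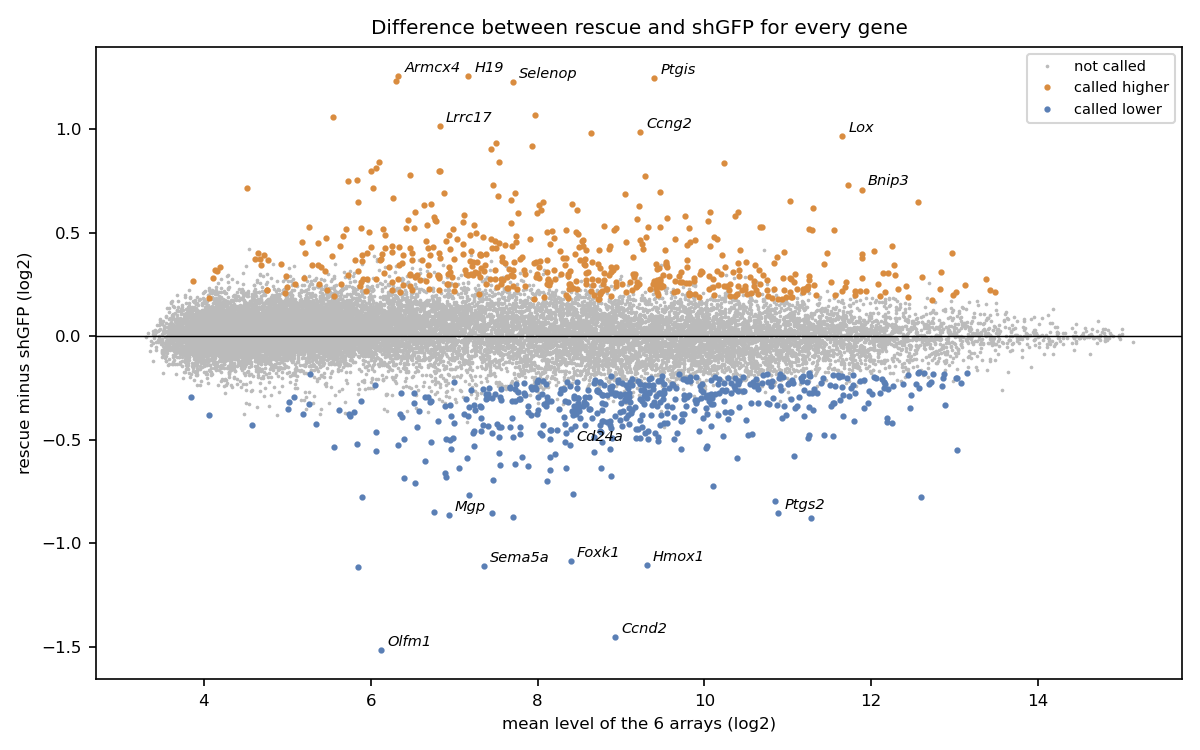
Difference between the rescue and shGFP means (log2, vertical axis) against the mean level of the 6 arrays (log2, horizontal axis), 1 point per gene. The 516 genes called higher and the 526 called lower are coloured, and most lie within 1 log2 unit of 0.

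The fibroblast label fitted the levels. Of 13 fibroblast markers, all but 1 (Lum) lay at or above the median gene level of 6.56 in these cells. Among them 3 were called higher in rescue and 0 lower (23.1% called, against 5.04% of all genes). Their summed linear level ran from 102231 to 104503 in the shGFP arrays and from 109373 to 111211 in the rescue arrays. The markers of macrophages and blood differed in level. Ptprc, at 4.19 in shGFP and 4.14 in rescue, and Adgre1, at 4.41 and 4.53, were near the bottom of the scale. Csf1r was well above the median gene level, at 10.22 in shGFP and 9.85 in rescue. Among 13 macrophage and blood markers, 10 lay below the median gene level and only Csf1r was called, which fell by 0.38 on the log2 scale (adjusted p = 0.00237). None of the 12 epithelial and none of the 11 endothelial markers was called by limma, and 3 and 0 of them had an unadjusted p under 0.05. The summed linear level of the macrophage and blood list ran from 2097 to 2227 in the shGFP arrays and from 1821 to 1986 in the rescue arrays, with Csf1r the brightest member. The sum of 9 pericyte and vascular smooth muscle markers ran from 837 to 847 in shGFP and from 735 to 797 in rescue, with 1 member called lower. That call was lost without shGFP replicate 1 or 3 or rescue replicate 2 or 3. The sum of the epithelial list ran from 656 to 668 and from 701 to 730. The part of these shifts in the results below was not tested. In bulk RNA, fewer cells of a type and less RNA per cell cannot be told apart.

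Foxk1 itself did not return to the control level on its brightest probe set. The level was 8.98, 8.89 and 8.95 on the shGFP arrays, 7.75, 7.96 and 7.74 on the shFoxk1 arrays, and 8.04, 7.77 and 7.76 on the rescue arrays. Every rescue array was thus below every shGFP array, and rescue overlapped shFoxk1. Rescue fell by 1.08 on the log2 scale (SE 0.08, adjusted p = 8.47e-05), to 47.2% of shGFP. The other probe sets of Foxk1 were dim: 1 had means of 4.91 in shGFP, 4.81 in shFoxk1 and 4.98 in rescue (adjusted p = 0.694 for rescue against shGFP over all probe sets), and the other had means of 5.37, 5.12 and 5.22 (adjusted p = 0.513). The labels and tables do not say which part of the transcript each probe set reads or whether the added Foxk1 contains it, so these levels check the hairpin but not the rescue, and the name rescue stands for the label. Foxk2 was at 10.83 ± 0.02 (SD, n = 3) in shGFP and 10.77 ± 0.03 in rescue, a difference of -0.05 with a 95% interval from -0.18 to 0.07 (adjusted p = 0.687).

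The called genes were sorted by where shFoxk1 stood. The shGFP arrays enter the comparisons of rescue and of shFoxk1 with shGFP, and the shFoxk1 arrays enter both comparisons of shFoxk1, so this sorting is a description with no test of its own. Against shGFP, shFoxk1 had 4.24% of genes called, and rescue had 0.953% called against shFoxk1. Of the 1042 genes, 472 had shFoxk1 called on the same side of shGFP and no call between rescue and shFoxk1. A further 466 were called against shGFP only in rescue, without a call between rescue and shFoxk1. The smaller classes were 76 genes called in rescue against both other groups but not in shFoxk1 against shGFP, 14 that lay between shGFP and shFoxk1, 9 that were on the opposite side of shGFP from shFoxk1, and 5 that lay beyond shFoxk1 on the same side.

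**Figure D2:**
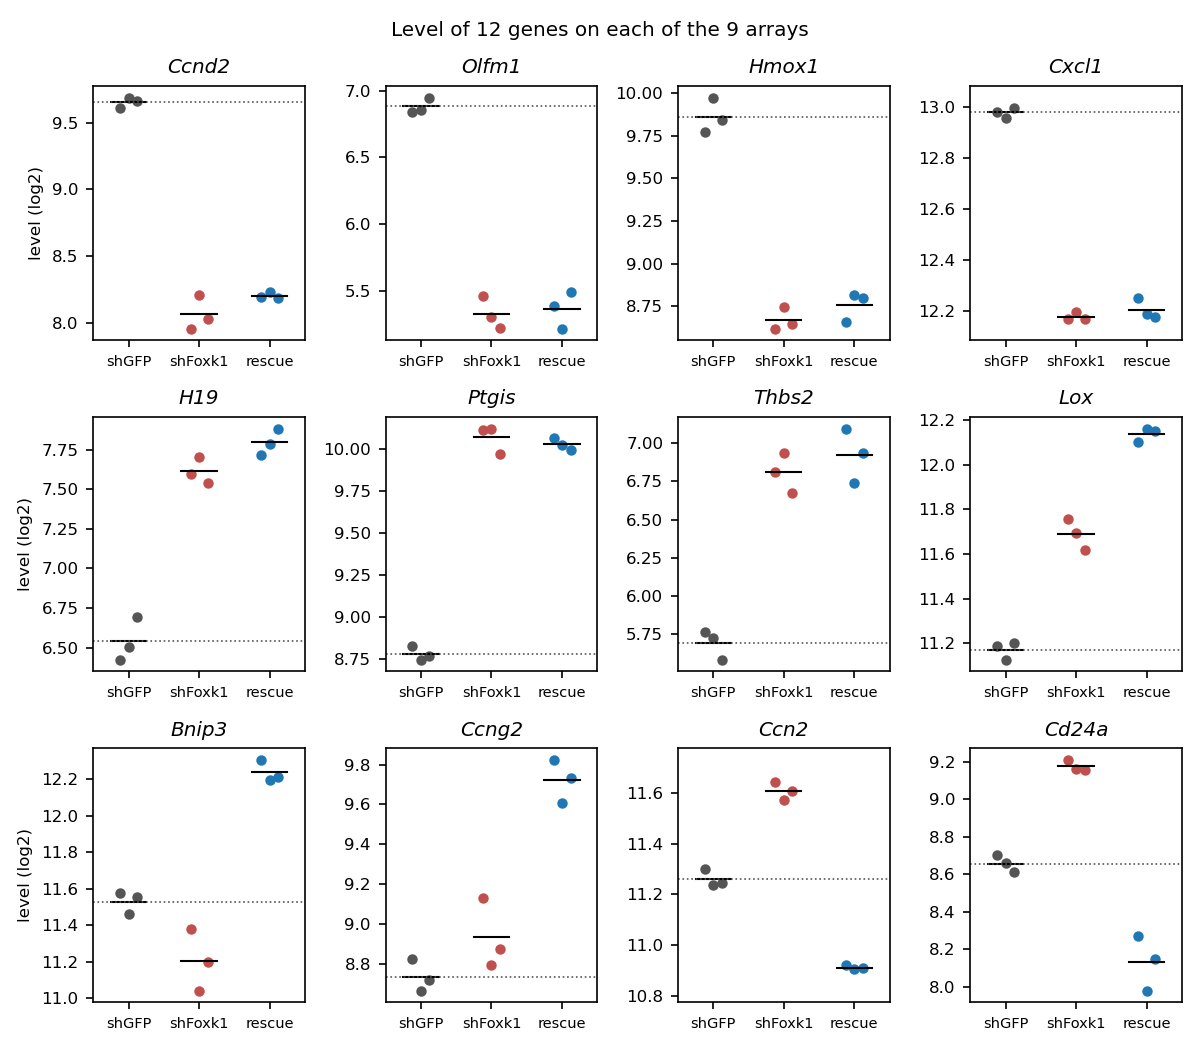
Level (log2) of 12 genes on each of the 9 arrays, with 1 point per array, bars at the group means and a dotted line at the shGFP mean. In the top row and for H19, Ptgis and Thbs2 the rescue arrays lie beside shFoxk1, for Lox and Ccng2 they lie above both other groups, and for Bnip3, Ccn2 and Cd24a they lie on the other side of shGFP from shFoxk1.

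The largest falls that stayed, with rescue near shFoxk1, included a cell cycle regulator and secreted or membrane proteins. Olfm1, a secreted glycoprotein best known from neurons, was at 6.84, 6.86 and 6.95 in shGFP and at 5.39, 5.22 and 5.49 in rescue. It fell by 1.52 on the log2 scale, 2.86-fold (SE 0.08, adjusted p = 7.97e-06), and shFoxk1 differed from shGFP by -1.55. Ccnd2 encodes cyclin D2, a partner of CDK4 and CDK6 in the G1 phase. It was at 9.61, 9.69 and 9.66 in shGFP and at 8.19, 8.23 and 8.19 in rescue. It fell by 1.45, 2.74-fold (SE 0.06, adjusted p = 2.84e-06), beside -1.59 in shFoxk1. Hmox1, the heme oxygenase that degrades heme, was at 9.77, 9.97 and 9.84 in shGFP and at 8.66, 8.82 and 8.80 in rescue. It fell by 1.11, 2.15-fold (SE 0.07, adjusted p = 1.94e-05), and differed by -1.19 in shFoxk1. Sema5a, a transmembrane semaphorin of axon guidance, fell by 1.11 (SE 0.10, adjusted p = 0.000197), from 7.84 to 7.99 over the shGFP arrays to 6.62 to 7.05 over the rescue arrays. The rule that named these 4 genes required that no array of rescue reach the shGFP range. Their rescue and shFoxk1 means differed by 0.26 or less.

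Transporters, enzymes and a matrix calcification inhibitor made up most of the next falls. Slco4a1, an organic anion transporter, fell by 0.88 (SE 0.06, adjusted p = 2.87e-05). Galnt3, which starts mucin-type O-glycosylation, fell by 0.87, and Plcg2, a phospholipase C, fell by 0.85. Mgp, the matrix Gla protein that inhibits calcification, was at 7.33, 7.40 and 7.37 in shGFP and 6.63, 6.49 and 6.39 in rescue, a fall of 0.86 (SE 0.08, adjusted p = 0.000213). Stbd1, a starch-binding protein that anchors glycogen to membranes, fell by 0.85, and its shFoxk1 difference was -0.80. The zinc exporter Slc30a1 fell by 0.77, and its step from shFoxk1, -0.35 (adjusted p = 0.0434), lost the call in every fit that left out an array except that without shFoxk1 replicate 3 (-0.30 to -0.37). The cationic amino acid transporter Slc7a3 fell by 0.76.

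The largest rises that stayed were those of Armcx4, H19, Ptgis, Thbs2 and Selenop. H19, an imprinted noncoding RNA of fetal tissues, was at 6.42, 6.50 and 6.70 in shGFP and at 7.72, 7.79 and 7.88 in rescue. It rose by 1.26, 2.39-fold (SE 0.08, adjusted p = 1.95e-05), and shFoxk1 differed from shGFP by 1.07. Ptgis, the prostacyclin synthase, rose from 8.82, 8.74 and 8.77 to 10.06, 10.02 and 9.99, a difference of 1.25 (SE 0.05, adjusted p = 2.84e-06), beside 1.29 in shFoxk1. Thbs2, a matricellular protein that limits angiogenesis, rose by 1.23 (SE 0.09, adjusted p = 8.47e-05) and Selenop, the secreted selenium carrier, by 1.23 (SE 0.07, adjusted p = 1.02e-05). Armcx4, an armadillo repeat protein, rose by 1.26 (SE 0.11, adjusted p = 0.000197). The arrays of these genes did not overlap between rescue and shGFP, as the rule that named them required.

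Other genes that rose and stayed differed in function. Cxxc5, a CXXC zinc finger protein that dampens Wnt signalling, was at 8.22, 8.16 and 8.06 in shGFP and 9.10, 9.12 and 9.18 in rescue, a rise of 0.98 (SE 0.05, adjusted p = 7.97e-06). Nfatc4, a calcineurin-regulated factor, rose by 1.07 on a probe set whose probes may also match other transcripts. The brightest Nfatc4 probe set without such probes gave 0.03, which ended the call, while a dimmer one, at 5.73 in shGFP and 6.21 in rescue, gave 0.48 (adjusted p = 0.0189 over all probe sets). Aqp1, the water channel aquaporin 1, rose by 0.84 (SE 0.06, adjusted p = 8.47e-05), the vesicle trafficking protein Sytl2 by 0.91, and suprabasin (Sbsn) by 0.84.

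The targets of HIF1 outside glycolysis were a list with many rises. HIF1 is stabilised when oxygen is low, because the prolyl hydroxylases of the Egln family then no longer mark it for degradation, and it binds the letters ACGTG or GCGTG in its target genes. Of 33 measured members, 16 were higher and 3 lower in rescue than in shGFP (57.6% called, against 5.04% of all genes), and the median difference was 0.24. The means of 29 members were higher in rescue. In shFoxk1 the median difference of the same list from shGFP was -0.13, on the other side of 0. Without rescue replicate 2, 15 members were called higher, and over all fits that left out an array the count ran from 12 to 16. It was 11 under actin and Gapdh centring.

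The proximal promoters of 3 members are shown, chosen by the size of the rise and not by their letters. Each call held with any array left out, the groups did not overlap and the rescue mean reached the median gene. Members without a promoter sequence or on an excluded chromosome were passed over. The windows are 300 bases around the annotated start, taken from RefSeq on GRCm38.p6 and read along the gene's strand. ACGTG and GCGTG on either strand are in capitals. Ccng2 spans chr5:93267323-93267622 on the plus strand, Bnip3 spans chr7:138909457-138909756 on the minus strand, and Ankrd37 spans chr8:45999801-46000100 on the minus strand.
Ccng2: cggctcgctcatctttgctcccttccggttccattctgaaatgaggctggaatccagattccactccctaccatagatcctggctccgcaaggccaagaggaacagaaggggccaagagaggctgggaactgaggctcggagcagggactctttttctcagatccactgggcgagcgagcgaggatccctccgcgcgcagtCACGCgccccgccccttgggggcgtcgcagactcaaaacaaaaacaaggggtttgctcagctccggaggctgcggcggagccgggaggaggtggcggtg
Bnip3: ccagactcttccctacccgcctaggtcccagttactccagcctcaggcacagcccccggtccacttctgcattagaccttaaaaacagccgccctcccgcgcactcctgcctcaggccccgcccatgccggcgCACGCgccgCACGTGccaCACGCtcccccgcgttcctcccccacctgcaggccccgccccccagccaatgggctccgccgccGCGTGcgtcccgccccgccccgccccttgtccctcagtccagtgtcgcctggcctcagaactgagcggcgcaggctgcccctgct
Ankrd37: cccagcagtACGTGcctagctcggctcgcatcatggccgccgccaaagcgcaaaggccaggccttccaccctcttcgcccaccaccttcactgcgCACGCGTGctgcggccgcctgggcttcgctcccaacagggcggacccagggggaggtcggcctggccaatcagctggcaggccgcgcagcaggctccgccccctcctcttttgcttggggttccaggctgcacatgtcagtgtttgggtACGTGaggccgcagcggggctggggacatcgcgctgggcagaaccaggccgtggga
The Ccng2 window held 1 match, that of Bnip3 held 5 and that of Ankrd37 held 4, counting both strands and overlapping matches. Of the 33 list members, 25 had promoter windows in the table, 34 windows in all, and 82.4% of these windows held ACGTG or GCGTG, against 43.8% of all 32851 windows. The 14 members called higher that had a window all held a match, and so did 24 of all 25 members with a window. The forkhead letters TGTTTAC were in 2.94% of the list's windows and in 3.65% of all windows. A match is a description of the letters and no evidence of binding, and the base composition of the windows was not compared.

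Within the list, the cyclin G2 gene Ccng2, whose product slows the cell cycle, rose most. It was at 8.82, 8.66 and 8.72 in shGFP, at 9.13, 8.79 and 8.87 in shFoxk1, and at 9.83, 9.61 and 9.73 in rescue. Every rescue array lay above the other 6. The rise over shGFP was 0.99, 1.98-fold (SE 0.09, adjusted p = 0.000213), while shFoxk1 was not called (0.20, adjusted p = 0.292). Bnip3 encodes a mitochondrial receptor that starts mitophagy. Its levels were 11.58, 11.46 and 11.55 in shGFP, 11.38, 11.04 and 11.20 in shFoxk1, and 12.31, 12.20 and 12.22 in rescue, so the 3 groups did not overlap. It rose by 0.71 over shGFP (SE 0.08, adjusted p = 0.000642) and by 1.03 over shFoxk1, with shFoxk1 at -0.32 from shGFP (adjusted p = 0.0466). That last call was lost in 8 of the 9 fits that left out an array, all but that without shFoxk1 replicate 1, with values between -0.24 and -0.36.

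Ankrd37, an ankyrin repeat protein induced in low oxygen, was at 8.97, 8.86 and 8.90 in shGFP and at 9.66, 9.58 and 9.37 in rescue, a rise of 0.63 (SE 0.08, adjusted p = 0.0012). Car9, the carbonic anhydrase at the surface of hypoxic cells, rose by 0.81 (SE 0.10, adjusted p = 0.00151) from a level below the median gene. It was at 5.71, 5.65 and 5.59 in shGFP and 6.66, 6.44 and 6.29 in rescue. Car9 was named after its values were seen, as were Bnip3, Ndrg1, Fam162a, Egln1, Ero1a and, further down, Adm, Bhlhe40 and Ddit4. Fam162a, a mitochondrial protein of the hypoxic response, rose by 0.40 (adjusted p = 0.000454), and Egln1, the main HIF hydroxylase, by 0.24 (adjusted p = 0.00805). Egln1 was no longer called when the arrays were centred on actin and Gapdh. A dimmer Egln1 probe set, at 9.66 in shGFP and 9.80 in rescue, gave 0.13 and was not called (adjusted p = 0.21 over all probe sets). P4ha2, a subunit of the collagen prolyl hydroxylase, rose by 0.60 (SE 0.06, adjusted p = 0.000369), and Mxi1, a Myc antagonist, by 0.52 (adjusted p = 0.000336).

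Ndrg1, a stress-induced gene, was at 9.92, 9.60 and 9.77 in shGFP, 9.53, 9.16 and 9.28 in shFoxk1 and 10.45, 10.27 and 10.26 in rescue. It rose by 0.56 over shGFP (SE 0.11, adjusted p = 0.013), a call lost without shGFP replicate 2 (adjusted p = 0.0542) and lost on the brightest probe set with no shared probes (0.43). A dimmer probe set with no shared probes gave 0.48 and was called (adjusted p = 0.00638 over all probe sets). Of the other shared probe sets, a brighter one gave 0.57 (adjusted p = 0.00403) and a dimmer one gave 0.23, which was not called (adjusted p = 0.177). Ero1a, an oxidase of disulfide bond formation, rose by 0.30 (adjusted p = 0.00885), and this call was lost under actin and Gapdh centring. The members that fell included Stbd1, given above, and Stc2. Stc2, a secreted glycoprotein also induced by ATF4, fell by 0.47 (adjusted p = 0.00109).

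Some HIF1 targets stood below shGFP in shFoxk1 and near it in rescue. Bhlhe40, a circadian repressor, was at 9.31, 9.32 and 9.35 in shGFP, 8.86, 8.71 and 8.79 in shFoxk1 and 9.42, 9.29 and 9.44 in rescue. The difference of rescue from shGFP was 0.06, with a 95% interval from -0.07 to 0.18 (adjusted p = 0.653). Ddit4, an inhibitor of mTORC1, differed by 0.07 with an interval from -0.05 to 0.18, beside -0.35 in shFoxk1. Adm, the vasodilator peptide adrenomedullin, was at 7.49, 7.31 and 7.54 in shGFP, 6.79, 6.31 and 6.60 in shFoxk1 and 7.90, 7.54 and 7.76 in rescue. Its difference from shGFP was 0.29 (interval 0.01 to 0.56, adjusted p = 0.256), which did not pass, and it was 1.17 from shFoxk1 (adjusted p = 0.00164).

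**Figure D3:**
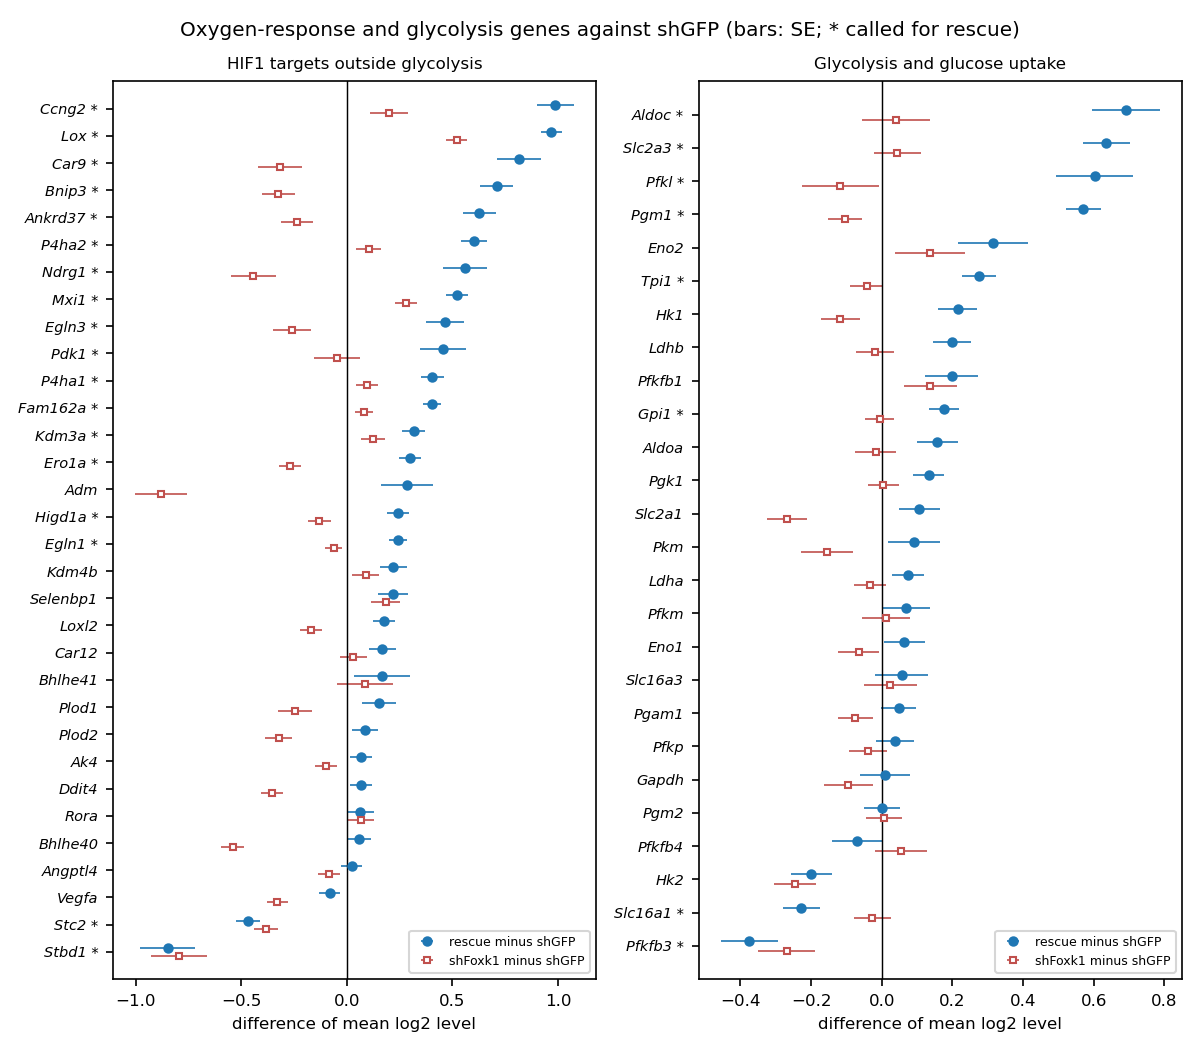
Differences from the shGFP mean (log2) for rescue (filled) and shFoxk1 (open), with standard errors, for HIF1 targets on the left (1 measured member is not drawn) and 26 glycolysis genes on the right. Genes called in rescue carry an asterisk. In the left panel 29 rescue means lie above 0, while several shFoxk1 means, such as Bnip3 and Ndrg1, lie below it.

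Glycolysis and glucose uptake genes rose in a smaller share. Of 26 members, 6 were higher and 2 lower (30.8% called), with a median difference of 0.10, and a fit with a variance trend and robust shrinkage called 10 higher. The lower count was 0 without shGFP replicate 1, shGFP replicate 2 or rescue replicate 2, and 1 without shGFP replicate 3 or rescue replicate 1 or 3. Pgm1, a phosphoglucomutase that links glycogen and glycolysis, was at 9.23, 9.27 and 9.29 in shGFP and 9.81, 9.90 and 9.79 in rescue. It rose by 0.57 (SE 0.05, adjusted p = 0.000197), beside -0.10 in shFoxk1. Aldoc, an aldolase, rose by 0.69 (SE 0.10, adjusted p = 0.00243) and Tpi1, the triose phosphate isomerase, by 0.28 (adjusted p = 0.00764), a call lost under actin and Gapdh centring. Pfkl, the liver-type phosphofructokinase, was named after its values were seen and rose by 0.60 (SE 0.11, adjusted p = 0.01).

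The glucose transporters differed by probe set. Slc2a3, the high-affinity transporter GLUT3, rose by 0.63 (SE 0.07, adjusted p = 0.000463) on a shared probe set, and another shared probe set gave 0.62. The brightest Slc2a3 probe set with no shared probes lay at 4.60 in shGFP and 4.54 in rescue and gave -0.06, the opposite sign. Slc2a1, the main fibroblast glucose transporter GLUT1, was named after its values were seen and differed by 0.11 (interval -0.02 to 0.23, adjusted p = 0.382). The same was true of the lactate dehydrogenase gene Ldha, which differed by 0.07 (interval -0.02 to 0.17, adjusted p = 0.432). No gene of oxidative phosphorylation was called by limma among the 29 measured, and 4 had an unadjusted p under 0.05, all higher in rescue.

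Of the targets of ATF4, 17 of 36 were called lower in rescue. ATF4 is the transcription factor of the integrated stress response and raises amino acid transport, serine and asparagine synthesis and tRNA charging when amino acids are short. None was called higher (47.2% called, with 26 lower and 3 higher at an unadjusted p under 0.05), with a median difference of -0.19, the same median as in shFoxk1, -0.19. Between 13 and 17 were called lower when an array was left out. Slc7a3 was at 8.90, 8.74 and 8.76 in shGFP and 8.12, 7.89 and 8.11 in rescue. Sesn2, a leucine sensor that restrains mTORC1, was at 8.36, 8.49 and 8.57 in shGFP and 7.91, 7.76 and 7.81 in rescue, a fall of 0.64 (SE 0.07, adjusted p = 0.000428), with shFoxk1 at -0.64.

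Enzymes of amino acid synthesis were among the members that fell. Psph, the last enzyme of serine synthesis, fell by 0.49 (SE 0.04, adjusted p = 0.000197), from 11.48, 11.52 and 11.46 to 11.02, 11.00 and 10.97. The mitochondrial folate enzyme Aldh1l2 fell by 0.46 (adjusted p = 0.000415), and the cystine transporter Slc7a11 by 0.44 (adjusted p = 0.00151). Asns, Gpt2, Chac1 and Cth were named after their values were seen. Asns, the asparagine synthetase, fell by 0.33, Gpt2, an alanine transaminase, by 0.40, and Chac1, which degrades glutathione, by 0.41. Cth, which makes cysteine, fell by 0.46 (SE 0.07, adjusted p = 0.00275), while its shFoxk1 difference was -0.07 (adjusted p = 0.68). Cars, a tRNA synthetase of a separate list, fell by 0.29 on its brightest probe set, and the mean of its probe sets, -0.13, was not called.

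Inflammatory chemokines and NF-kB targets were the other list with many falls. NF-kB dimers are held in the cytoplasm by inhibitors and, once freed, induce chemokines that attract leukocytes and also their own inhibitors and subunits. Of 37 members, 18 were lower and 3 higher (56.8% called), with a median difference of -0.23, beside -0.29 in shFoxk1. The lower count ran from 13 to 18 when an array was left out, and was 16 without rescue replicate 2. Cxcl1, a neutrophil chemokine, was at 12.98, 12.96 and 13.00 in shGFP and 12.25, 12.19 and 12.18 in rescue. It fell by 0.78, 1.71-fold (SE 0.04, adjusted p = 1.02e-05), with shFoxk1 at -0.80.

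Ccl2 and Ccl7, which attract monocytes, fell too. Ccl2 was at 13.29, 13.35 and 13.28 in shGFP and 12.75, 12.72 and 12.80 in rescue, a fall of 0.55 (SE 0.05, adjusted p = 0.000286). Ccl7 fell by 0.58 (SE 0.05, adjusted p = 0.000275). Cxcl10, an interferon-inducible chemokine named after its values were seen, fell by 0.40 (adjusted p = 0.00083). Ptgs2, the inducible cyclooxygenase, was at 11.35, 11.30 and 11.29 in shGFP, 10.89, 10.71 and 10.92 in shFoxk1 and 10.59, 10.29 and 10.50 in rescue. It fell by 0.85 (SE 0.08, adjusted p = 0.000275), and the further step from shFoxk1, -0.38, did not pass (adjusted p = 0.0657). Among regulators named after their values were seen, the inhibitor Nfkbie fell by 0.54 and the subunit Relb by 0.43.

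The 3 members that rose were Ptx3, Ccl9 and Cxcl12, of which Ccl9 and Cxcl12 were named after their values were seen. Ptx3, a soluble pentraxin of innate immunity, was at 7.73, 7.45 and 7.23 in shGFP, 9.08, 8.87 and 9.08 in shFoxk1 and 8.53, 8.29 and 8.36 in rescue. Rescue thus lay between the other groups, 0.92 above shGFP (SE 0.12, adjusted p = 0.00136) and -0.62 from shFoxk1 (adjusted p = 0.0396). The step back from shFoxk1 lost its call in 6 of the 9 fits that left out an array, those without rescue replicates 2 and 3, each shFoxk1 replicate and shGFP replicate 2, with values between -0.56 and -0.69. Ccl9, a monocyte chemokine, rose by 0.69 (adjusted p = 0.000338), and Cxcl12, the ligand of the receptor CXCR4, by 0.33 (adjusted p = 0.00581).

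**Figure D4:**
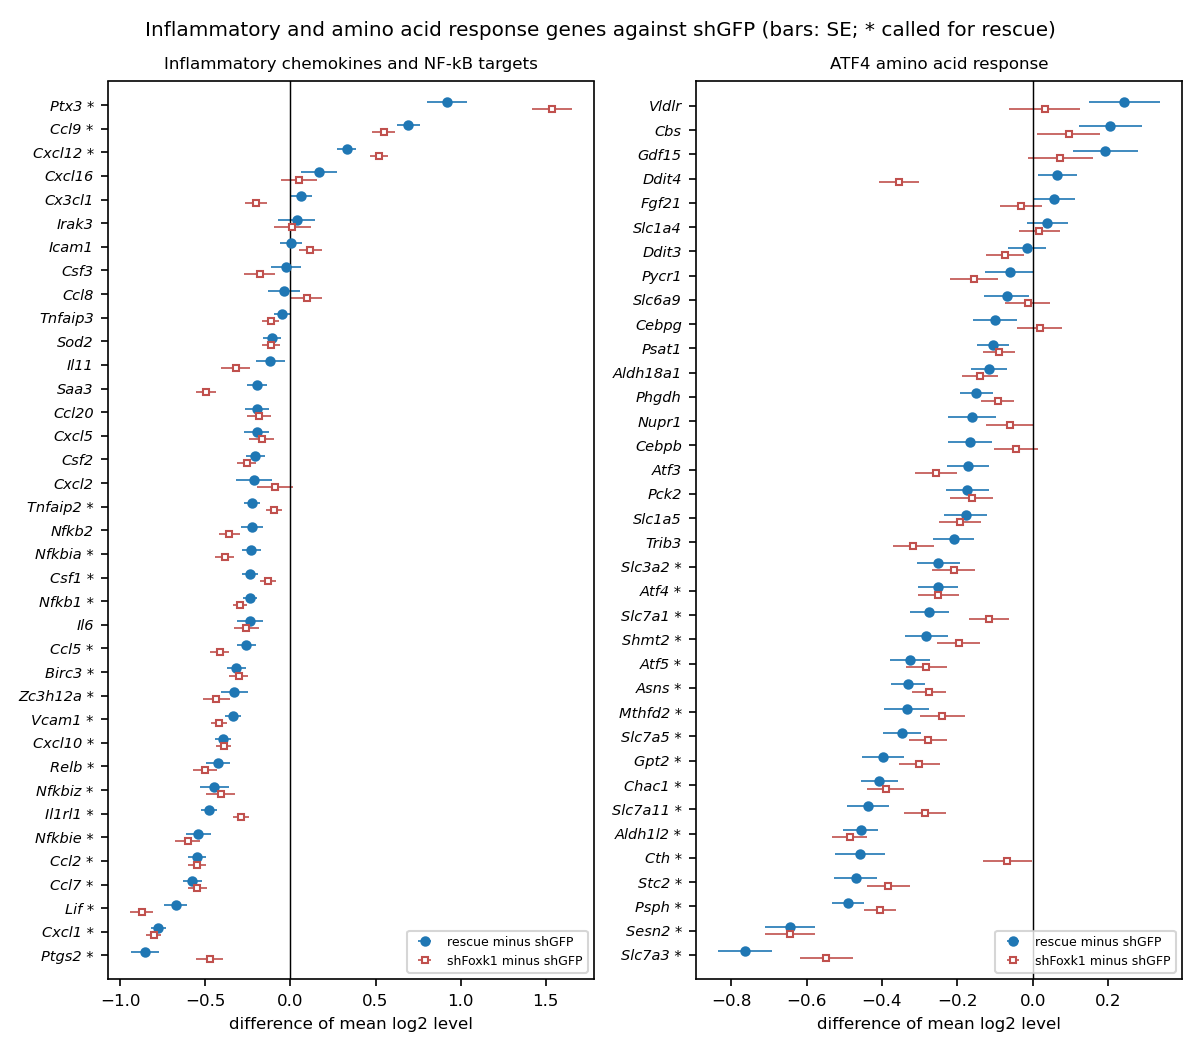
Differences from the shGFP mean (log2) for rescue (filled) and shFoxk1 (open), with standard errors, for 37 inflammatory genes on the left and 36 ATF4 targets on the right. Genes called in rescue carry an asterisk. Of these, 18 lie to the left of 0 in the left panel and 17 in the right panel, and Ptx3, Ccl9 and Cxcl12 lie to the right.

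Growth factors and immediate early genes fell in part. Of 43 growth factor ligands and receptors, 6 were higher and 7 lower (30.2% called). The lower count was 4 without shGFP replicate 1 or 3, and the higher count was 3 under actin and Gapdh centring. Ereg, an EGF receptor ligand, was at 11.30, 11.20 and 11.22 in shGFP and 10.47, 10.39 and 10.47 in rescue, a fall of 0.79 (SE 0.05, adjusted p = 2.87e-05). Hbegf, another such ligand, fell by 0.41 (adjusted p = 0.000945), and the lymphangiogenic factor Vegfc by 0.70 (SE 0.07, adjusted p = 0.000428).

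Another EGF receptor ligand moved the other way. Btc, betacellulin, was at 6.45, 6.49 and 6.36 in shGFP, 6.66, 6.66 and 6.52 in shFoxk1 and 7.29, 7.17 and 7.23 in rescue, a rise of 0.80 (SE 0.06, adjusted p = 7.89e-05). The growth hormone receptor gene Ghr rose by 0.66 (SE 0.05, adjusted p = 8.06e-05) and the PDGF receptor ligand Pdgfc by 0.47 (adjusted p = 0.000622). Of 33 immediate early genes, 1 was higher and 7 were lower (24.2% called), and the lower members included Ereg and the nuclear receptor Nr4a1, which fell by 0.38 (adjusted p = 0.00101).

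Targets of TGF-beta and of the co-activator YAP were split. TGF-beta acts through SMAD factors to induce matrix genes, and YAP induces the matricellular genes Ccn1 and Ccn2. Of 27 members, 3 were higher and 9 lower (44.4% called), with a median of -0.08. The lower count was 5 without shGFP replicate 1, shGFP replicate 2 or rescue replicate 2. Ccn2 was at 11.30, 11.24 and 11.24 in shGFP, 11.64, 11.57 and 11.61 in shFoxk1 and 10.92, 10.91 and 10.91 in rescue. It was above shGFP in shFoxk1 by 0.35 (adjusted p = 0.00148) and fell by 0.35 below it in rescue (SE 0.04, adjusted p = 0.00136).

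Ccn1, named after its values were seen, was at 12.63, 12.65 and 12.64 in shGFP, 12.68, 12.65 and 12.67 in shFoxk1 and 12.28, 12.30 and 12.31 in rescue, a fall of 0.34 (SE 0.04, adjusted p = 0.00103). This is the brightest of 4 probe sets, and they disagree. A second gave -0.36 in rescue (adjusted p = 0.00269 over all probe sets) and -0.01 in shFoxk1. The other two gave -0.11 and -0.12 in rescue (adjusted p = 0.507 and 0.542), with shFoxk1 at 0.33 and 0.35. Thbs1, thrombospondin 1, also named after its values were seen, fell by 0.28 (adjusted p = 0.00592), while shFoxk1 was at 0.22 from shGFP, a call lost without shFoxk1 replicate 1 or 3 and without shGFP replicate 2 or 3 (0.20 to 0.21). Bambi, a pseudoreceptor that blocks TGF-beta and BMP signals, was at 9.08, 9.09 and 9.08 in shGFP, 8.81 on each shFoxk1 array and 8.49, 8.36 and 8.50 in rescue. It fell by 0.64 from shGFP (SE 0.05, adjusted p = 8.47e-05) and by 0.36 from shFoxk1 (adjusted p = 0.00734). Fstl1, a secreted follistatin-like protein, was among the 3 that rose, by 0.52 (SE 0.05, adjusted p = 0.000213). The feedback inhibitor Pmepa1, named after its values were seen, fell by 0.54 (adjusted p = 0.000622).

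The BMP pathway and its Id targets rose in part. BMP ligands activate SMAD1 and SMAD5, which induce the Id proteins, inhibitors of basic helix-loop-helix factors, and the inhibitory Smad6. Of 31 members, 6 were higher and 3 lower (29% called), with a median of 0.06. Id4 was at 7.22, 6.95 and 6.93 in shGFP and 8.16, 7.85 and 7.90 in rescue, a rise of 0.93 (SE 0.10, adjusted p = 0.000619), and shFoxk1 was at 0.93 as well. Id2 rose by 0.69 (adjusted p = 0.00103), and Id1 and Id3, named after their values were seen, rose by 0.31 and 0.29. Smad6 rose by 0.67 (SE 0.07, adjusted p = 0.000486), from a level below the median gene.

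The BMP ligand and its antagonist moved apart. Bmp4, named after its values were seen, was at 6.90, 7.07 and 6.75 in shGFP, 8.04, 8.26 and 8.10 in shFoxk1 and 7.31 on each rescue array. It was higher than shGFP by 0.40 (adjusted p = 0.0171), and lay -0.83 from shFoxk1 (adjusted p = 0.00103). The call against shGFP was lost without rescue replicate 2 (adjusted p = 0.0521) or 3 (0.061) and without shGFP replicate 1 (0.0644) or 3 (0.0619). The secreted BMP antagonist Grem1, also named after its values were seen, fell by 0.36 (adjusted p = 0.00947), with shFoxk1 at -0.57.

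Of the 9 genes that crossed the shGFP level, 3 kept every call that defines the class in all fits that left out an array: Ccn2, given above, Cd24a and Dcn. Cd24a, a cell surface glycoprotein of progenitor cells, was at 8.70, 8.66 and 8.61 in shGFP, 9.21, 9.16 and 9.15 in shFoxk1 and 8.27, 7.98 and 8.15 in rescue. It fell by 0.52 from shGFP (SE 0.07, adjusted p = 0.00172) and by 1.04 from shFoxk1. Dcn, the proteoglycan decorin that binds collagen and TGF-beta, was at 11.69, 11.70 and 11.69 in shGFP, 11.37, 11.45 and 11.42 in shFoxk1 and 12.09, 12.06 and 12.11 in rescue. It rose by 0.40 over shGFP (SE 0.04, adjusted p = 0.000619) and by 0.67 over shFoxk1.

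Between the groups lay 14 genes, of which Akap12 and Mmp10 kept every defining call when an array was left out. Akap12, a scaffold of protein kinase A, was at 8.14, 8.01 and 7.96 in shGFP, 8.95, 9.0 and 8.93 in shFoxk1 and 8.40, 8.32 and 8.36 in rescue. It remained 0.32 above shGFP (adjusted p = 0.00811), a call lost under actin and Gapdh centring (0.28), and was -0.60 from shFoxk1 (adjusted p = 0.00078). Mmp10, a matrix metalloproteinase, was at 7.48, 7.60 and 7.54 in shGFP, 6.82, 6.80 and 6.83 in shFoxk1 and 7.25, 7.22 and 7.24 in rescue. It fell by 0.30 from shGFP (adjusted p = 0.00352) and was 0.42 above shFoxk1 (adjusted p = 0.00193). Heca, a cell cycle regulator, was 0.51 above shGFP and Sema7a, a membrane-anchored semaphorin, fell by 0.43, but their steps back from shFoxk1 (-0.36 and 0.35) lost the call without shFoxk1 replicate 1 (-0.33 and 0.32), and that of Sema7a also without shFoxk1 replicate 3 (0.34).

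Bambi, and Lox on its brightest probe set, lay beyond shFoxk1 with every defining call kept. Lox, the lysyl oxidase that crosslinks collagen, is also a HIF1 target and was at 11.19, 11.13 and 11.20 in shGFP, 11.76, 11.69 and 11.62 in shFoxk1 and 12.10, 12.16 and 12.15 in rescue. It rose by 0.97, 1.96-fold (SE 0.05, adjusted p = 7.97e-06), and the step from shFoxk1 was 0.45 (adjusted p = 0.00225). A second bright Lox probe set, at 11.24 in shGFP, 11.35 in shFoxk1 and 11.70 in rescue, gave a smaller rise of 0.46. That rise was called (adjusted p = 0.0272 over all probe sets). Its step from shFoxk1, 0.35, was not called (adjusted p = 0.21), and its shFoxk1 difference from shGFP was 0.12. Cd248, the stromal receptor endosialin, was 0.65 above shGFP (adjusted p = 0.000197), with shFoxk1 at 0.30. Its step from shFoxk1 was 0.35 (adjusted p = 0.0184) and lost the call without rescue replicate 2 or 3 or shFoxk1 replicate 1 or 3, with values of 0.30 to 0.35, and the call of shFoxk1 against shGFP was lost without shFoxk1 replicate 1 or shGFP replicate 1 or 2 (0.28 to 0.30).

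Among the 76 genes that differed from both other groups while shFoxk1 was not called, 60 were higher and 16 lower. Lrrc17, a secreted leucine-rich repeat protein known to inhibit osteoclast formation, was at 6.46, 6.25 and 6.25 in shGFP, 6.57, 6.50 and 6.55 in shFoxk1 and 7.19, 7.29 and 7.54 in rescue. It rose by 1.02, 2.02-fold (SE 0.09, adjusted p = 0.000197). Cdkn1c, the imprinted CDK inhibitor p57, was at 7.40, 7.50 and 7.43 in shGFP, 7.74, 7.55 and 7.64 in shFoxk1 and 6.83, 6.92 and 6.82 in rescue. It fell by 0.59 (SE 0.06, adjusted p = 0.000369) and by 0.79 from shFoxk1 (adjusted p = 0.00026). Gsta4, a glutathione transferase, rose by 0.37 (adjusted p = 0.00692), with shFoxk1 at -0.13. For Lrrc17 and Cdkn1c no rescue array reached the range of the other 6, which the naming rule required for the shGFP arrays alone.

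Imprinted genes, expressed from the copy of a single parent, gave 4 higher and 2 lower of 23 measured (26.1% called), and 4 were higher in every fit that left out an array. The lower count was 1 without shGFP replicate 1 or 2 or rescue replicate 2 or 3, and 3 without rescue replicate 1. Besides H19, Dlk1, an inhibitor of adipocyte formation named after its values were seen, was at 11.29, 11.47 and 11.33 in shGFP and 11.82, 12.26 and 12.21 in rescue. It rose by 0.73 (SE 0.11, adjusted p = 0.00449). Ndn, a MAGE family protein, rose by 0.52 (SE 0.05, adjusted p = 0.000336). Igf2, the imprinted growth factor beside H19, was named after its values were seen and differed by -0.04 (interval -0.17 to 0.10, adjusted p = 0.813).

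Matrix genes were split between rises and falls. Of 39 proteoglycans and matricellular proteins, 5 were higher and 3 lower (20.5% called). Thbs2, Dcn and Efemp1, the fibulin 3 gene, were among the higher, Efemp1 by 0.51 (adjusted p = 0.00549), and Mgp and Tnc, the gene of tenascin C, among the lower, Tnc by 0.34 (adjusted p = 0.00345). Both Efemp1 and Tnc were named after their values were seen. Fn1, fibronectin, was at 12.29, 12.13 and 12.29 in shGFP and 12.91, 12.82 and 12.92 in rescue, a rise of 0.65 (SE 0.06, adjusted p = 0.000197).

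Matrix proteases and their inhibitors gave 5 higher and 5 lower of 27 (37% called). The higher count was 3 without rescue replicate 3, and the lower count was 3 without shGFP replicate 3, rescue replicate 1 or rescue replicate 3. Plat, the tissue plasminogen activator, rose by 0.53 (adjusted p = 0.0012). Mmp9, a gelatinase, fell by 0.49 (adjusted p = 0.000373), from 9.13, 9.13 and 9.17 to 8.69, 8.66 and 8.60, and Ctsk, the collagenolytic cathepsin K of the lysosome list, by 0.51 (adjusted p = 0.00103). Of the integrins, the collagen-binding Itga10 fell by 0.50 (adjusted p = 0.00717).

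FoxO factors induce growth arrest and atrophy genes when insulin signalling is low, and 6 of 27 of their listed targets were higher and none lower (22.2% called, with 10 higher and 3 lower at an unadjusted p under 0.05). These included Selenop, Ccng2 and Pik3ip1, an inhibitor of PI3 kinase that rose by 0.64 (SE 0.08, adjusted p = 0.00151). Bcl2l11, the cell death gene Bim, rose by 0.33 (adjusted p = 0.00471) on its brightest probe set, and the mean of its probe sets, 0.15, was not called. Among autophagy genes, Map1lc3a rose by 0.44 (adjusted p = 0.00171) and the cargo receptor Nbr1 by 0.36 (adjusted p = 0.00151). Uvrag, which promotes autophagosome formation, fell by 0.33 (adjusted p = 0.00468).

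HOX genes, which record the position of a fibroblast along the body axis, had 4 higher and none lower of 33 (12.1% called, with 9 higher and 0 lower at an unadjusted p under 0.05), but 1 under actin and Gapdh centring. Hoxb6 rose by 0.38 (adjusted p = 0.00444), and the call of Hoxa9 (0.28) and that of Hoxb2 (0.25) did not hold under that centring, nor did that of Hoxa9 on the mean of its probe sets (0.15). Lef1, a Wnt-responsive factor, rose by 0.39 (adjusted p = 0.00492). Ribosome biogenesis genes had 7 lower and none higher of 32 (21.9% called, with 17 lower and 0 higher at an unadjusted p under 0.05), with a median of -0.14. That count lay between 0 and 3 when any array other than shFoxk1 replicate 2 was left out.

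Few genes of DNA replication, mitosis and cholesterol synthesis were called. Of 38 DNA replication genes 1 was higher, with 36 means above shGFP and a median difference of 0.07, and of 36 mitosis genes 1 was higher. Both calls were lost without any of the shGFP replicates or rescue replicate 3, and that of mitosis also without rescue replicate 1. With a variance trend and robust shrinkage 6 DNA replication genes and 2 mitosis genes were higher. Of 24 cholesterol synthesis and uptake genes 2 were lower, with a median of -0.02 beside -0.16 in shFoxk1. The lower count was 1 without any of the shGFP replicates or rescue replicate 2 or 3. Larger shares were called in 2 related lists. The D cyclin and inhibitor list had 4 higher and 2 lower of 15 (40% called). Its higher count ran from 0 to 5 when an array was left out. Fatty acid synthesis and desaturation had 1 higher and 3 lower of 22 (18.2% called), and 2 to 3 lower when an array was left out. In that list Acsl1, which activates fatty acids, fell by 0.38 (adjusted p = 0.00724). Acss2, an acetyl-CoA synthetase, rose by 0.40 (adjusted p = 0.0106). The IGF-binding protein genes went opposite ways, with Igfbp3 falling by 0.62 (adjusted p = 0.00258) and Igfbp6 rising by 0.32 (adjusted p = 0.00764).

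**Figure D5:**
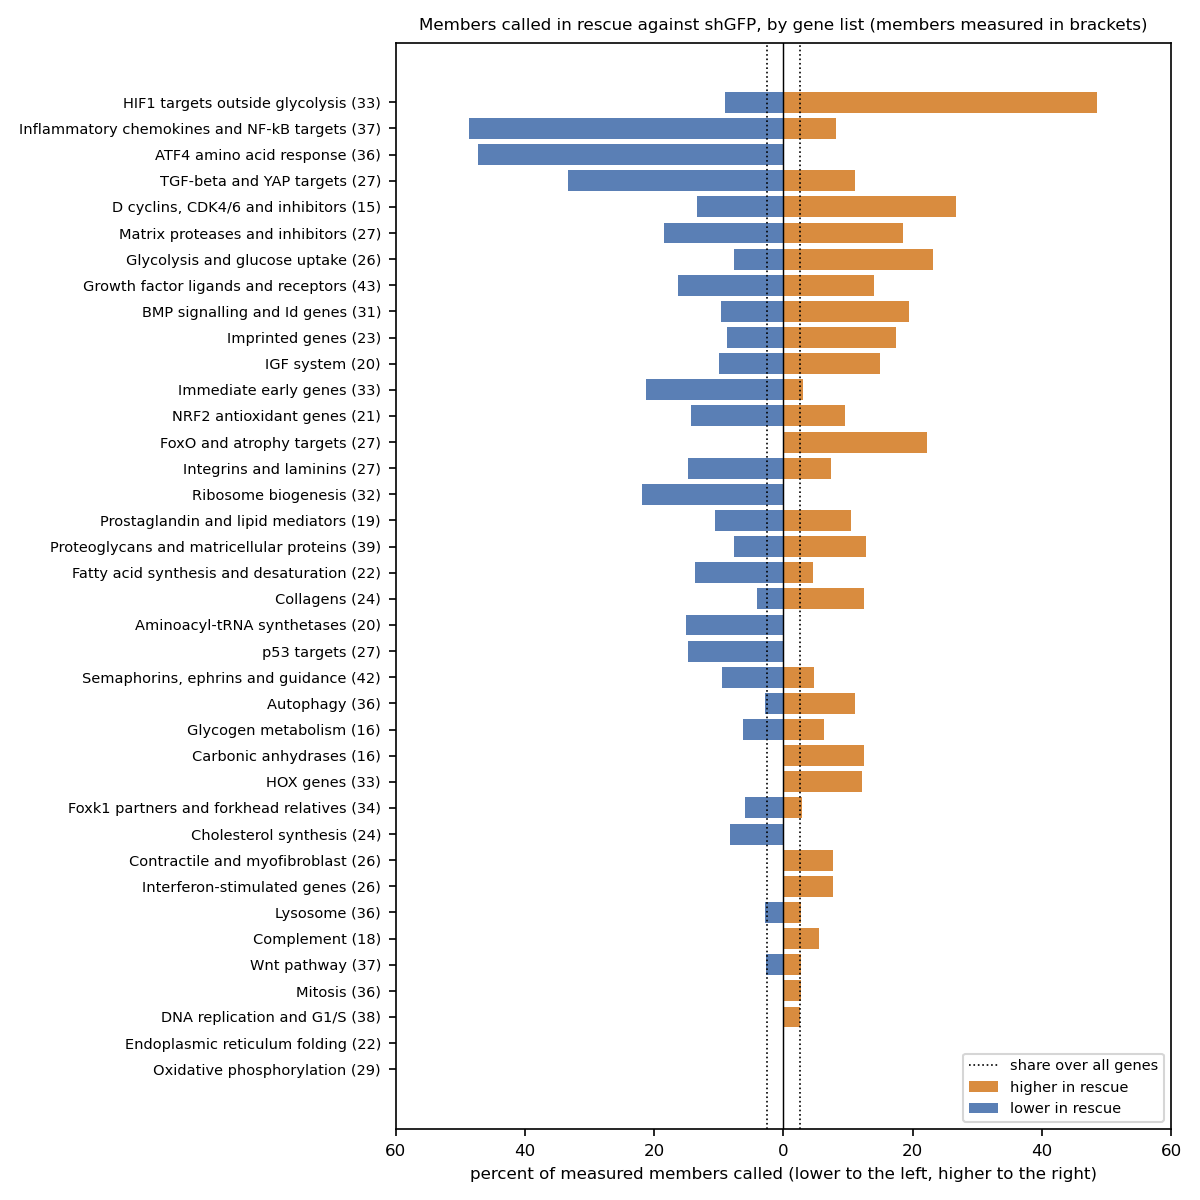
Percent of the measured members of each gene list called in rescue against shGFP, lower to the left and higher to the right, with the number measured in brackets and dotted lines at the shares over all genes (2.54% lower and 2.5% higher). HIF1 targets extend furthest to the right, and the inflammatory and ATF4 lists furthest to the left. The bar of ribosome biogenesis genes shrinks to between 0 and 3 of 32 members when any array but shFoxk1 replicate 2 is left out. The 4 D cyclin and inhibitor genes called higher become 0 to 2 without any shGFP replicate, rescue replicate 1 or 3, or shFoxk1 replicate 1.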

How the data were processed

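The 9 arrays, 3 each of shGFP, shFoxk1 and rescue MEFs, were all used. The deposited log2 values are RMA values, and the submitters' processing notes also name affy. The authors' deposited comparison tables also hold p-values and a score per probe set, from an unnamed tool. They supplied gene symbols and Entrez identifiers. Their log2 differences served only as a check, and those of a fit of all probe sets lay within 8.4e-09 of them. The array design is unnamed too. Of 45101 probe sets, 64 were array controls and 6948 had no symbol. Each of 20672 genes was represented by its brightest probe set over all arrays (9652 had several), with no filter on low levels. Symbols were updated through RefSeq.

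Group means of all 9 arrays were fitted with limma 3.58.1 in R 4.3.3 (lmFit and eBayes, no covariates) and p-values were adjusted over all genes by the Benjamini-Hochberg method, with calls at an adjusted p under 0.05. The procedure was tested on simulated data. Nothing states that replicates came from separate cultures, so the spread behind each p-value may be technical. Same-numbered arrays had deviations from their group means with positive correlations of 0.06 to 0.23, lowest in replicate 3. Differently numbered arrays were not compared, so whether the numbers are pairs was not tested. The main fit treated the arrays as unpaired.

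Genes were named by rule: Foxk1 and Foxk2, the 15 largest rises and falls, up to 8 genes of each class by the position of shFoxk1, and up to 4 members of each list with the smallest adjusted p, all among calls that held with any array left out, with groups that did not overlap and a mean at or above the median gene. Where fewer than 3 genes of a class kept every defining call, its largest genes were used and the lost calls stated. Others are marked as named after their values were seen. The comparison, the 38 gene lists and the 10 marker lists were chosen with earlier results of these data known. Lists share members. Some named genes are not reported here. The alternatives were a different choice of probe sets, filter, variance model, centring and arrays.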

Additional observations from a re-analysis of the deposited data

How the results depend on the processing

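The 1042 calls in rescue against shGFP became 1583 (1002 lower) when every probe set was tested, 1614 (863 lower) after a filter on low values, and 1640 (777 higher, 863 lower) with a variance trend and robust shrinkage. Centring on actin and Gapdh left 246 higher. Leaving out an array gave 567 to 1026 calls in all, 287 to 512 higher and 274 to 538 lower. With the replicate block 1223 genes were called, 608 higher and 615 lower. Whether the replicate numbers pair the samples was not tested. Only the sign of Slc2a3 reversed among 126 genes that the rule named or that were added, with Slc2a3 at -0.058 without shared probe sets. Of 2510 values of these genes under the alternatives, 20 kept their sign but lost their call and 1 gained it (Adm, 0.29, under the replicate block), and the cause was not tested. The fits that left out an array are among these alternatives. Of the 126 genes, 93 were named by rule, which apart from Foxk1 and Foxk2 required the call to hold in those fits. For these genes that outcome was thus set by the choice and is no measure of stability.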

Other observations

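Probe sets without a symbol were not part of the comparison of genes. Over all 45037 probe sets, 1583 passed an adjusted p under 0.05 by limma. Of the 6948 without a symbol, 66 passed, a smaller share, with 28 higher and 38 lower in rescue than in shGFP. The largest difference among them was that of probe set 1427585_at, at 5.70 in shGFP, 8.31 in shFoxk1 and 7.76 in rescue, a rise of 2.06 (adjusted p = 1.88e-05). Probe set 1426260_a_at rose by 0.96 (adjusted p = 7.95e-05), from 7.04 in shGFP to 8.0 in rescue, with shFoxk1 at 7.38. Dimmer probe sets of genes with a symbol numbered 17417, and 445 of them were called where the gene's brightest probe set was not. Some called genes had a dimmer probe set that was not called: Csf1r (-0.04, against -0.38 on the brightest), Sesn2 (-0.14 against -0.64), Gpt2 (-0.08 against -0.40), Pfkl (0.15 against 0.60) and Slc30a1 (-0.22 against -0.77). Other dimmer probe sets of Csf1r (-0.29), Gpt2 (-0.35 and -0.34) and Pfkl (0.51) were called in the direction of the gene. The list is not complete. A dimmer probe set each of Fn1 (0.49), Id2 (0.51), Map1lc3a (0.46), Thbs1 (-0.34) and Pmepa1 (-0.44) was not called either. The same held for Mxi1 (0.28), Nbr1 (0.24) and Heca (0.22). These values had the sign of the gene. These genes were picked after their values were seen. In 4 cases a dimmer probe set and its called gene had calls of opposite sign.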
